A study of Mus musculus with 14 samples.

Results

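The genes described here are 10 regulators and components of the actin cytoskeleton, among the 35735 genes of the deposited expression table: Capg, Iqgap1, Pstpip1, Actb, Cfl1, Pfn1, Tmsb4x, Coro1a, Arpc1b and Lcp1. Capg, Iqgap1 and Pstpip1 were selected on their measured levels, which were lower in microglia of APOE4 than of APOE3 retinas after microbead injection. The other 7 were listed by name, as core parts of the same machinery. RNA was sequenced from microglia, the resident macrophages of neural tissue, sorted from mouse retina as cells positive for CD11b and Fcrls and negative for Ly6c. The injected microbeads are a glaucoma model in which beads hinder the outflow of fluid and raise eye pressure. The 14 libraries form 4 groups: APOE4 microbead (genotype APOE E4/E4, microbead injection, n = 3), APOE3 microbead (APOE E3/E3, microbead injection, n = 3), APOE4 sham (APOE E4/E4, sham injection, n = 4) and APOE3 sham (APOE E3/E3, sham injection, n = 4). All mice were 12 weeks old per the labels. A retina gave 100 to 600 sorted cells, of which 100 to 300 in 5 µl went into a library. Whether retinas came from separate animals is not stated, so each p-value measures only the spread between these samples, which may be technical.

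Actin filaments grow at their barbed ends and lose subunits at their pointed ends, and a cell moves its membrane by controlling where this happens. Thymosin beta 4 (Tmsb4x) holds monomers in reserve, profilin (Pfn1) charges them and hands them to growing ends, and cofilin (Cfl1) severs old filaments. The Arp2/3 complex starts branches, capping proteins such as Capg stop barbed ends from growing, and bundling proteins such as Lcp1 tie filaments together. In microglia this machinery drives process movement, chemotaxis and phagocytosis.

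The sequences upstream of the 3 picked genes are shown because these 3 genes had the largest differences among the 10 between the genotypes after microbead injection. Each run is the 250 bases before the gene start of RefSeq on GRCm38.p6, given 5' to 3' on the strand of the gene. Capg is transcribed from the plus strand and its window is chr6:72549397-72549646, the window of Iqgap1 on the minus strand is chr7:80803332-80803581, and that of Pstpip1 on the plus strand is chr9:56089726-56089975. The Capg and Iqgap1 windows lie inside the spans of these genes in GENCODE M21 (Capg 72544391 to 72562983 on chromosome 6, Iqgap1 80711583 to 80825974 on chromosome 7), because that annotation holds transcripts that start further upstream. The Pstpip1 window runs a few bases into its GENCODE span of 56089962 to 56128888 on chromosome 9. Capitals mark matches on either strand to AGGAAG (the core bound by Ets factors such as PU.1) or GGGCGG (the Sp1 box), and the CArG box bound by SRF was also searched. These motifs do not overlap each other in the 3 runs.
Capg: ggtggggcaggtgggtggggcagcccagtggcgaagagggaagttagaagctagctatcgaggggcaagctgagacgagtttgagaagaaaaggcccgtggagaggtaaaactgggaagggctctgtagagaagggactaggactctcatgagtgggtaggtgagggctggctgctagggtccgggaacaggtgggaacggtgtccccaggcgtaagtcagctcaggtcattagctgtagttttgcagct
Iqgap1: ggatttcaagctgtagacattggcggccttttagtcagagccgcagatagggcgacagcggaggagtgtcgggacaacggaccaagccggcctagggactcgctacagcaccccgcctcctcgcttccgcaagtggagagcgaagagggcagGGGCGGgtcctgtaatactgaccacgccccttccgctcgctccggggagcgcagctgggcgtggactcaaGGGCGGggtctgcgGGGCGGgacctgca
Pstpip1: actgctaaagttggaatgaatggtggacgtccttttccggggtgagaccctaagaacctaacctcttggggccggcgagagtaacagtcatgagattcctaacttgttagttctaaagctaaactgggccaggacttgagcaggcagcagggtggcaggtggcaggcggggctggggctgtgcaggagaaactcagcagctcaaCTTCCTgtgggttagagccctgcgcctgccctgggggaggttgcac
The Capg run held none of the 3 motifs. The Iqgap1 run held 3 GGGCGG boxes and the Pstpip1 run held 1 AGGAAG core, on the opposite strand. Over 32851 RefSeq promoter windows of the same length, 29.5% held AGGAAG, 32.7% held GGGCGG and 1.47% held a CArG box. A match describes these letters only, and no binding was measured.

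Libraries held 451287 to 727726 estimated reads, of which 38.55% to 65.3% fell on 12 genes at satellite repeats, leaving 226374 to 447190 reads elsewhere. Levels below are in CPM, read counts scaled to a common library size by TMM normalisation, which matches libraries on the bulk of their genes. The 13 microglia markers summed here, Csf1r, Cx3cr1 and Tmem119 among them, all had reads, and together gave 11300 to 13500 CPM in APOE4 microbead, 5730 to 9210 in APOE3 microbead libraries, 11800 to 13500 in APOE4 sham and 10900 to 15200 in APOE3 sham libraries. The sort markers Fcrls and Itgam (CD11b) had reads in every library, and Ly6c2 had 0 to 4. The monocyte markers (11 of 11 with a read, led by Fn1) stood apart in the APOE3 microbead libraries: 50.5, 201 and 74.3 CPM in APOE4 microbead, 1530, 766 and 281 in APOE3 microbead libraries, 49.8 to 62.8 in APOE4 sham and 63.6 to 82.5 in APOE3 sham. Without Fn1 the other 10 markers summed to 44.4, 61.5 and 50.1 CPM in APOE4 microbead, 215, 431 and 44.4 in APOE3 microbead libraries, 20.7 to 35.9 in APOE4 sham and 32.4 to 68.5 in APOE3 sham, so that APOE3 microbead 3 lay within the APOE3 sham range. Of the defining monocyte genes, Ccr2 had 2, 10 and 8 reads in APOE4 microbead, 37, 104 and 9 in APOE3 microbead libraries, 0 to 4 in APOE4 sham and 4 to 11 in APOE3 sham libraries. Border macrophage markers (8 of 8 with a read, led by Siglec1) summed to 82.9 to 110 CPM in APOE4 microbead, 133 to 217 in APOE3 microbead libraries, 41.5 to 87.7 in APOE4 sham and 66.7 to 119 in APOE3 sham. Cldn5 of endothelium and Nkg7 of NK cells had no read in any library. In bulk RNA, fewer cells of a type and less RNA per cell cannot be told apart.

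The 10 genes spanned a wide range of abundance. On the deposited TPM scale, which corrects for transcript length and so allows genes to be compared, Actb led with a median level of 354.5 TPM over the 14 libraries (238.7 to 848.4), and Tmsb4x followed with 238.7 TPM (153.2 to 581.6). Pfn1 (75.2 TPM), Arpc1b (69.4 TPM), Cfl1 (62.3 TPM) and Coro1a (59.3 TPM) had close medians, and Lcp1 had 20.5 TPM. Capg (11.5 TPM), Pstpip1 (3.31 TPM) and Iqgap1 (1.37 TPM) were the least abundant. Actb was above Tmsb4x, Tmsb4x above Pfn1, Coro1a above Lcp1 and Capg above Pstpip1 within each of the 14 libraries. The order within the middle group was not fixed: Pfn1 was above Arpc1b in 7 of 14, Arpc1b above Cfl1 in 10 and Cfl1 above Coro1a in 10. Lcp1 was above Capg in 11 of 14 libraries and Pstpip1 above Iqgap1 in 12. Over all libraries Actb had 17965 reads, Capg 467, Iqgap1 322 and Pstpip1 219.

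Capg, which caps barbed ends and belongs to the gelsolin family, was highest in the APOE3 microbead libraries and lowest in the APOE4 microbead libraries. It had 6.06, 31.6 and 27.7 CPM in APOE4 microbead, 167, 91.2 and 95.9 CPM in APOE3 microbead, 55.6, 61.2, 42.7 and 45.3 CPM in APOE4 sham, and 27.5, 33.4, 40.6 and 57.6 CPM in APOE3 sham. Each APOE4 microbead library lay below each APOE3 microbead library, as for 7.19% of the 7609 genes tested, and below each APOE4 sham library, as for 4.0%. Each APOE3 microbead library lay above each APOE3 sham library, as for 7.57%. The lowest value rests on 3 reads. The means were 21.8 ± 13.7 CPM in APOE4 microbead, 118 ± 42.7 in APOE3 microbead libraries, 51.2 ± 8.72 in APOE4 sham and 39.8 ± 13.04 in APOE3 sham (SD, n = 3, 3, 4 and 4). Fitted log2 fold changes (± SE) were -2.37 ± 0.38 for APOE4 microbead against APOE3 microbead, -1.19 ± 0.38 for APOE4 microbead against APOE4 sham and 1.52 ± 0.32 for APOE3 microbead against APOE3 sham. The microbead libraries chose this gene, as they chose Iqgap1 and Pstpip1, so for these 3 genes their values are a description and carry no test.

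Iqgap1, a scaffold that binds Rac1, Cdc42 and filaments, was far higher in the APOE3 microbead libraries than in any other library. It had 16.2, 36.5 and 10.4 CPM in APOE4 microbead, 156, 122 and 74.6 CPM in APOE3 microbead, 14.4, 8.28, 10.7 and 3.77 CPM in APOE4 sham, and 12.0, 15.8, 18.3 and 22.8 CPM in APOE3 sham. The APOE4 microbead libraries overlapped the APOE4 sham libraries, since only the second (36.5 CPM) and the first lay above them. The means were 21.0 ± 13.8 CPM in APOE4 microbead, 118 ± 40.9 in APOE3 microbead libraries, 9.27 ± 4.44 in APOE4 sham and 17.2 ± 4.52 in APOE3 sham (SD, n = 3, 3, 4 and 4). Log2 fold changes were -2.45 ± 0.39 for APOE4 microbead against APOE3 microbead, 1.18 ± 0.48 for APOE4 microbead against APOE4 sham and 2.73 ± 0.36 for APOE3 microbead against APOE3 sham. Without APOE4 microbead 2 the first was -3.14 and the second 0.49. The second rests on 6 to 22 reads per APOE4 microbead and 2 to 8 reads per APOE4 sham library. In the libraries of these groups alone Iqgap1 did not pass the filter on low counts. It was fitted there through the APOE3 microbead libraries, where it was high.

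Pstpip1, an F-BAR adaptor that bends membrane and links the phosphatase PTP-PEST to the Wiskott-Aldrich protein, varied little within the APOE4 groups. It had 12.1, 11.6 and 10.4 CPM in APOE4 microbead, 43.0, 62.3 and 42.6 CPM in APOE3 microbead, 21.5, 23.2, 24.9 and 22.6 CPM in APOE4 sham, and 22.3, 12.3, 18.3 and 24.0 CPM in APOE3 sham. As for Capg, the APOE4 microbead libraries lay below all APOE4 sham libraries, which held for 4.0% of the genes tested. The APOE3 microbead libraries lay above all APOE3 sham libraries, which held for 7.57%. However, the second APOE3 sham library was close to the APOE4 microbead level. These levels rest on 6 or 7 reads per APOE4 microbead library and on 19, 56 and 24 reads in the APOE3 microbead libraries. The means were 11.4 ± 0.899 CPM in APOE4 microbead, 49.3 ± 11.3 in APOE3 microbead libraries, 23.1 ± 1.41 in APOE4 sham and 19.2 ± 5.21 in APOE3 sham (SD, n = 3, 3, 4 and 4). Log2 fold changes were -2.12 ± 0.39 for APOE4 microbead against APOE3 microbead, -1.01 ± 0.40 for APOE4 microbead against APOE4 sham and 1.35 ± 0.33 for APOE3 microbead against APOE3 sham. Capg and Pstpip1 thus had fold changes of opposite sign after microbead injection in the 2 genotypes. Those of Iqgap1 were positive in both, but in APOE4 its libraries overlapped and it did not pass the filter on low counts.

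**Figure D1:**
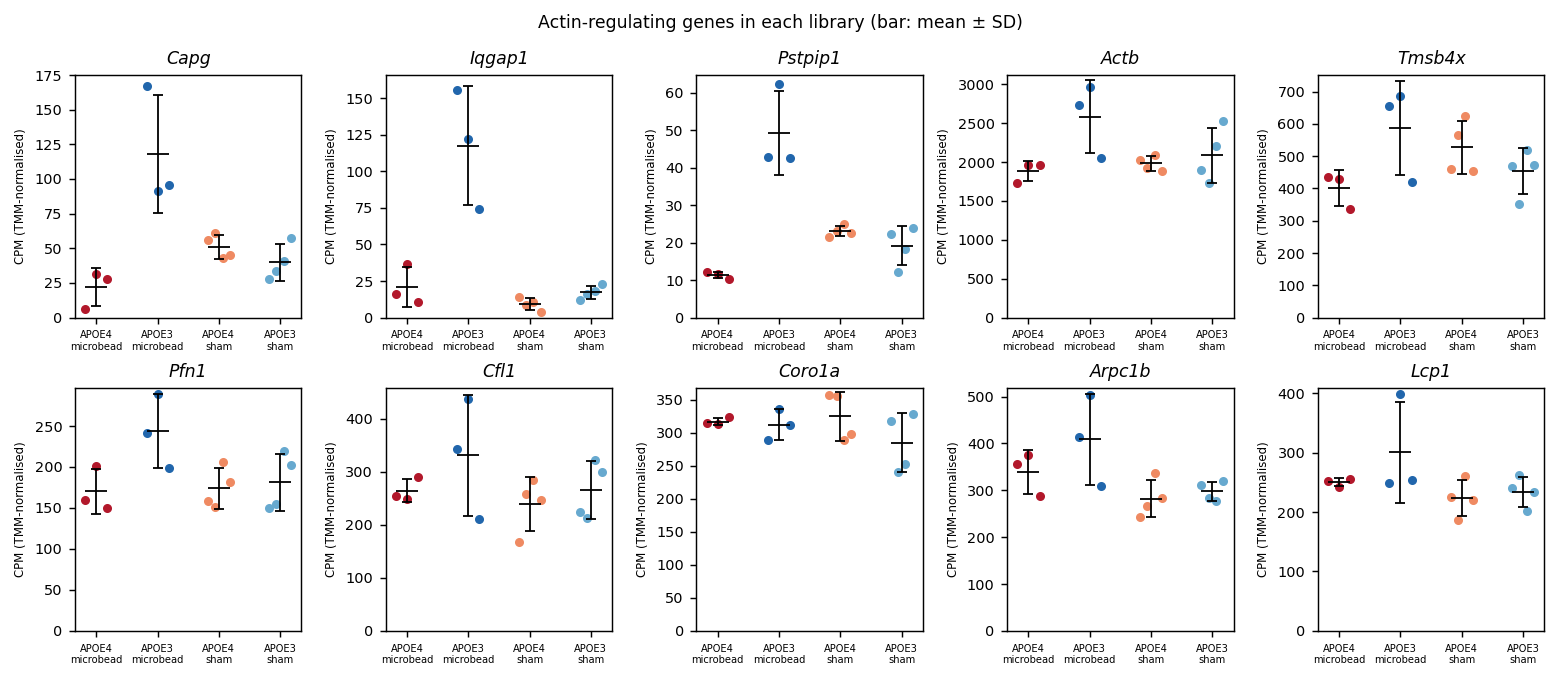
Level of each of the 10 genes in every library (points, TMM-normalised CPM, linear axis from 0) by group, with the group mean and SD as bars (n = 3 or 4). The points of Capg, Iqgap1 and Pstpip1 separate the APOE4 microbead from the APOE3 microbead libraries, and Actb does so narrowly (at most 1968 CPM in APOE4 microbead, at least 2055 CPM in APOE3 microbead), while the other 6 genes overlap between these groups.

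All 3 picked genes were lower without overlap in the APOE4 microbead than in the APOE3 microbead libraries, as were 7.19% of the 7609 genes tested, but the choice of the genes fixed this. A ratio within a library does not depend on how libraries are scaled. Per 100 Actb transcripts, Capg stood at 1.33 to 2.59 in APOE4 microbead, 4.09 to 6.37 in APOE3 microbead libraries, 2.39 to 5.7 in APOE4 sham and 1.91 to 2.69 in APOE3 sham libraries (TPM over TPM, in percent). The Capg share in APOE4 sham libraries thus reached into the APOE3 microbead range. Iqgap1 stood at 0.233 to 0.555 percent of Actb in APOE4 microbead, 0.91 to 1.59 in APOE3 microbead libraries, 0.0484 to 0.484 in APOE4 sham and 0.174 to 0.385 in APOE3 sham. Pstpip1 stood at 0.448 to 0.743 percent in APOE4 microbead, 1.1 to 2.64 in APOE3 microbead libraries, 0.688 to 1.0 in APOE4 sham and 0.563 to 1.11 in APOE3 sham. For all 3 genes the ranges of the microbead groups stayed apart, which the choice of the genes favoured. For Pstpip1 the APOE3 microbead range (from 1.1) met that of APOE3 sham (up to 1.11).

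With Fn1, the monocyte marker sum in APOE3 microbead (1530, 766 and 281 CPM) had the order of Iqgap1 (156, 122 and 74.6 CPM). Without it, the sum (215, 431 and 44.4 CPM) was highest in APOE3 microbead 2, as was Pstpip1 (43.0, 62.3 and 42.6 CPM). Pstpip1 was almost equal in APOE3 microbead 1 and 3 (42.97 and 42.62 CPM, from 19 and 24 reads). The sum without Fn1 was 215 and 44.4 CPM there. The order of 3 libraries cannot show which gene followed the markers. APOE3 microbead 3 had the lowest marker sum of that group. There Capg was 95.9, Iqgap1 74.6 and Pstpip1 42.6 CPM. The choice of the genes favoured levels above APOE4 microbead in this library, so these values are a description. With Fn1, the marker sum of 281 CPM in APOE3 microbead 3 was above every APOE4 microbead (at most 201 CPM) and every sham library (at most 82.5 CPM). Without Fn1, the sum in that library lay within the APOE3 sham range. With that library alone standing for its group, the fold changes against APOE3 sham were 1.25 for Capg, 2.09 for Iqgap1 and 1.13 for Pstpip1, and those of APOE4 microbead against it were -2.09 for Capg, -1.80 for Iqgap1 and -1.89 for Pstpip1. When the fit took the summed monocyte level as a further term, the fold change of APOE3 microbead against APOE3 sham was 0.16 for Capg, 0.91 for Iqgap1 and 1.36 for Pstpip1, and that of APOE4 against APOE3 microbead was -1.24 for Capg, -0.96 for Iqgap1 and -2.13 for Pstpip1. With the other 10 markers as the term (the monocyte covariate without Fn1, an alternative chosen after seeing the data), the fold change of APOE3 microbead against APOE3 sham was 1.47 for Capg, 2.19 for Iqgap1 and 1.19 for Pstpip1, and that of APOE4 against APOE3 microbead was -2.33 for Capg, -1.98 for Iqgap1 and -1.97 for Pstpip1. The values of Capg and Iqgap1 were thus much smaller only with Fn1 in the term, and those of Pstpip1 were close under both. High marker levels occurred mainly in 1 group, so the marker level and the group cannot be told apart by this fit.

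**Figure D2:**
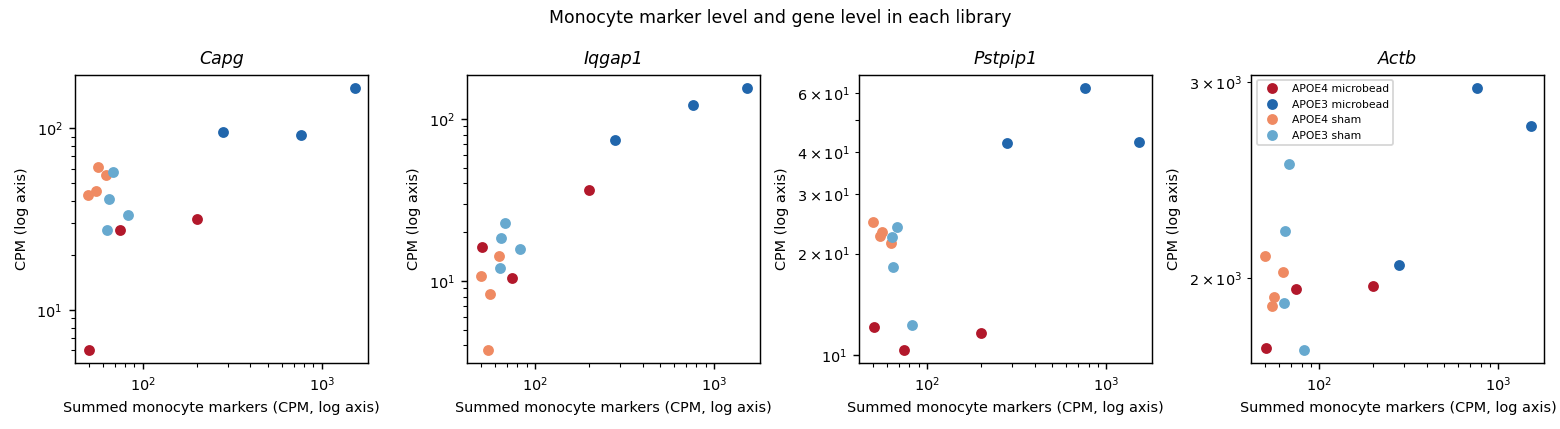
Summed level of the 11 monocyte markers (CPM, log axis) against the level of Capg, Iqgap1, Pstpip1 and Actb (CPM, log axis) in each of the 14 libraries, coloured by group. The 3 APOE3 microbead libraries lie to the right at 281 to 1530 CPM of monocyte markers, and APOE4 microbead 2 follows at 201 CPM.

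The sham libraries were not used to pick the 3 genes, and there the genotypes could be tested for Capg and Pstpip1. Capg had a log2 fold change of 0.34 ± 0.32 in APOE4 sham against APOE3 sham (95% interval -0.31 to 0.99, adjusted p = 0.9635), from the edgeR quasi-likelihood test with Benjamini-Hochberg adjustment over the 7609 genes tested, as are all adjusted p-values here unless another tool is named. Pstpip1 had 0.24 ± 0.33 (interval -0.44 to 0.92, adjusted p = 0.9818). Iqgap1 had -0.90 ± 0.45, with overlapping libraries, and this value is a description without a test. It had 2 to 19 reads per sham library and passed the filter on low counts through the APOE3 microbead libraries, where it was high. In the sham libraries alone it did not pass that filter. None of the other 9 genes passed in this comparison, in which 0.0131% of all genes did. With edgeR 0 of these 9 had an unadjusted p under 0.05, against 4.4% of all genes. None of the 10 lay without overlap between the sham groups, as 3.52% of all genes did. DESeq2 and limma-voom called none of them either. Differences of either sign lay within the intervals of Capg and Pstpip1.

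Actb, the main cytoplasmic actin of these cells, had 1732, 1968 and 1958 CPM in APOE4 microbead, 2739, 2965 and 2055 CPM in APOE3 microbead, 2025, 1923, 2095 and 1888 CPM in APOE4 sham, and 1901, 1727, 2204 and 2531 CPM in APOE3 sham. The APOE4 microbead libraries lay just below the APOE3 microbead libraries and within reach of the sham libraries. Its log2 fold change was -0.46 ± 0.19 for APOE4 microbead against APOE3 microbead (adjusted p = 0.406), -0.07 ± 0.18 for APOE4 microbead against APOE4 sham (adjusted p = 0.9921) and 0.31 ± 0.18 for APOE3 microbead against APOE3 sham (adjusted p = 0.4695), none of which passed.

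Among the genes that supply monomers, Tmsb4x had 436, 430 and 337 CPM in APOE4 microbead, 656, 687 and 421 CPM in APOE3 microbead, 461, 566, 626 and 455 CPM in APOE4 sham, and 469, 353, 518 and 474 CPM in APOE3 sham. It was the only one of the 7 whose APOE4 microbead libraries all lay below the APOE4 sham libraries, where 4.0% of all genes were likewise lower. Its log2 fold change was -0.55 ± 0.22 for APOE4 microbead against APOE3 microbead (adjusted p = 0.3445) and -0.39 ± 0.20 for APOE4 microbead against APOE4 sham (adjusted p = 0.7995). Pfn1 had 159, 201 and 150 CPM in APOE4 microbead, 242, 289 and 199 CPM in APOE3 microbead libraries, 151 to 206 CPM in APOE4 sham and 149 to 219 CPM in APOE3 sham. The highest APOE4 microbead library and the lowest APOE3 microbead library met, and the log2 fold change between these groups was -0.52 ± 0.22 (adjusted p = 0.4187). Cfl1 had 254, 249 and 290 CPM in APOE4 microbead, 344, 437 and 211 CPM in APOE3 microbead libraries, 167 to 285 CPM in APOE4 sham and 212 to 323 CPM in APOE3 sham. The APOE3 microbead libraries of Cfl1 spread around the others on both sides, with a log2 fold change of -0.33 ± 0.25 for APOE4 microbead against APOE3 microbead (adjusted p = 0.7712).

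Coro1a, a leukocyte coronin that binds filaments and the Arp2/3 complex, varied little. It had 315, 312 and 323 CPM in APOE4 microbead, 290, 336 and 311 CPM in APOE3 microbead libraries, 288 to 357 CPM in APOE4 sham and 241 to 329 CPM in APOE3 sham, and all groups overlapped. Arpc1b, a subunit of the Arp2/3 complex used in blood cells, had 357, 375 and 287 CPM in APOE4 microbead, 414, 503 and 309 CPM in APOE3 microbead libraries, 244 to 336 CPM in APOE4 sham and 278 to 320 CPM in APOE3 sham. APOE3 microbead 3 fell within the sham range, and the log2 fold change of APOE3 microbead against APOE3 sham was 0.45 ± 0.19 (adjusted p = 0.2325). Lcp1, the leukocyte plastin that bundles filaments, had 252, 243 and 256 CPM in APOE4 microbead, 249, 398 and 254 CPM in APOE3 microbead libraries, 187 to 261 CPM in APOE4 sham and 201 to 262 CPM in APOE3 sham. One APOE3 microbead library (398 CPM) was high and the rest overlapped.

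None of these 7 genes passed in any comparison with edgeR, DESeq2 or limma-voom. In APOE4 microbead against APOE3 microbead, 0.578% of all genes passed, and the 7 had log2 fold changes of -0.55 to 0.02 (adjusted p from 0.3445 to 0.9886), with 3 of 7 (Tmsb4x, Actb and Pfn1) at an unadjusted p under 0.05, against 9.8% of all genes. In APOE4 microbead against APOE4 sham, where 0.223% of all genes passed, they ranged from -0.39 to 0.27 (adjusted p from 0.7995 to 0.9976) and 0 had an unadjusted p under 0.05, against 6.49%. In APOE3 microbead against APOE3 sham, where 5.2% of all genes passed, they ranged from 0.13 to 0.45 (adjusted p from 0.2325 to 0.8484), and 2 (Arpc1b and Pfn1) had an unadjusted p under 0.05, against 14.7%. All 7 values of that comparison were above 0, but without both APOE3 microbead 1 and 2, the libraries with the most monocyte marker reads, Actb (-0.02), Cfl1 (-0.32) and Tmsb4x (-0.10) were below 0. In the genotype by microbead interaction, the microbead effect in APOE4 minus that in APOE3, 0.092% of all genes passed and the 7 ranged from -0.77 to -0.17 (adjusted p from 0.379 to 0.9575). Only Tmsb4x, at -0.77 ± 0.28, had an unadjusted p under 0.05 there, against 8.19% of all genes. The 95% interval for APOE4 against APOE3 microbead was -0.85 to -0.06 for Actb and -0.99 to -0.11 for Tmsb4x, unadjusted for the number of genes, and for Coro1a it was -0.38 to 0.42. The comparisons share libraries with each other and are not independent.

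**Figure D3:**
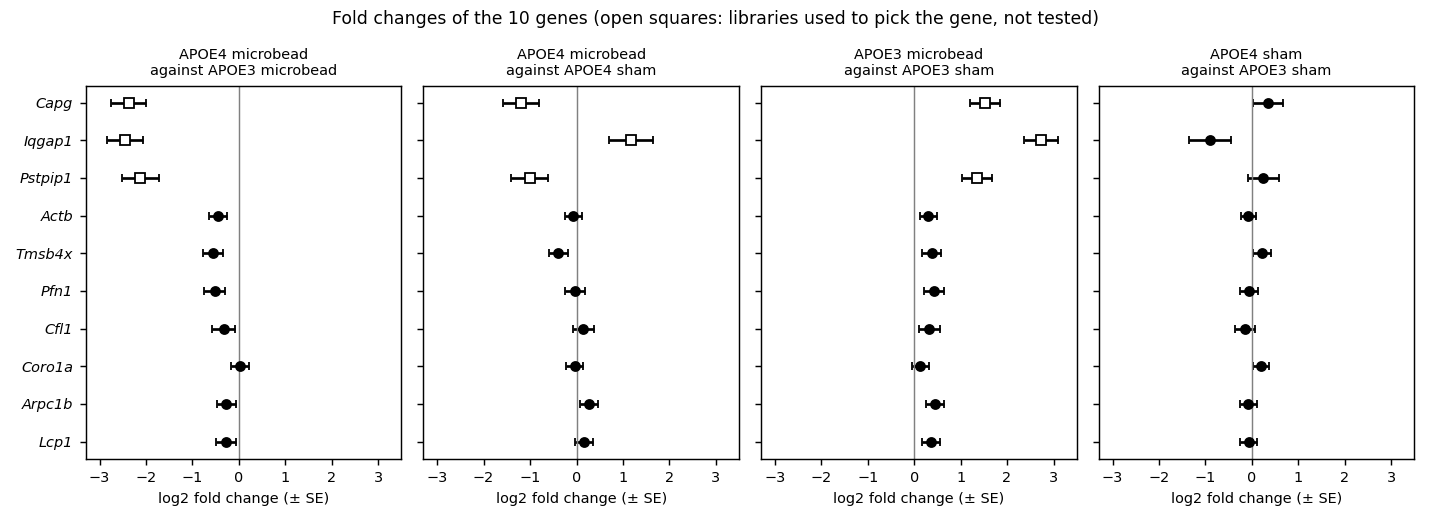
Log2 fold change (points, ± SE as bars) of the 10 genes in 4 comparisons from the edgeR fit. Open squares mark Capg, Iqgap1 and Pstpip1 where the libraries that picked them enter and no test was made; these lie at -2.45 to -2.12 in APOE4 microbead against APOE3 microbead, where the other 7 lie between -0.55 and 0.02.

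Near-identical genes were searched with the leading transcript of each gene, and matches were found for 2 of the 10. The search did not cover the other transcripts or less similar genes. Transcripts of 2 other genes (Snx32 and Gm6180) matched Cfl1 over at least 100 bases at 95% identity and held 134 reads, or 5.8% of the reads of Cfl1, and Gm5637 matched Arpc1b and held 2 reads. The reads of Actb, Coro1a, Tmsb4x and Pfn1 came mostly from 1 transcript each (97.6%, 90.7%, 83.7% and 81.7%). Those of Capg were spread over 10 of its 11 annotated transcripts, with 46.7% on the leading one, against 64.8% for Iqgap1 and 69.7% for Pstpip1.

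Beyond the 10 genes, 144 other genes of the actin machinery were listed in 10 groups by role, and 117 of them had enough reads to test. In APOE3 microbead against APOE3 sham, 5 rose and 6 fell (9.4% of the 117, against 5.2% of all genes, of which 3.54% rose and 1.67% fell). Their median log2 fold change was -0.00179, against -0.0169 over all genes, with 58 positive and 59 negative values. In the libraries of these groups alone, 113 of the 117 passed the filter on low counts. The genes that rose were the filament-binding transgelin Tagln2, the F-BAR protein Gas7, the myosin light chain Myl6, the membrane-linked myosin Myo1e and the leukocyte GTPase Rac2. Those that fell were Srgap2, an F-BAR protein that switches off Rac, the bundler fascin (Fscn1), the WAVE complex subunits Cyfip1 and Abi3, the Rac activator Elmo1 and the membrane-bound filament binder Marcks.

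Tagln2 had 106, 85.7 and 60.4 CPM in APOE3 microbead, against 25.8, 19.3, 30.5 and 29.98 CPM in APOE3 sham. The groups were far apart, with a log2 fold change of 1.65 ± 0.29 (adjusted p = 0.0007003). Gas7 had 52.0, 55.6 and 21.3 CPM in APOE3 microbead, against 3.44, 3.51, 10.2 and 16.8 CPM in APOE3 sham, and rose by 2.25 ± 0.50 (adjusted p = 0.005296). Its APOE3 sham levels rest on 2, 2, 5 and 14 reads. APOE3 microbead 3 was closest to the sham level. Myl6 had 131, 160 and 123 CPM in APOE3 microbead, against 31.6 to 77.2 CPM in APOE3 sham, and rose by 1.151 ± 0.26 (adjusted p = 0.00535). Myo1e had 65.6, 66.8 and 62.2 CPM in APOE3 microbead, against 24.1, 22.8, 32.5 and 39.6 CPM in APOE3 sham (1.10 ± 0.28, adjusted p = 0.01472), the tightest of the groups that rose. Rac2 had 190, 206 and 139 CPM in APOE3 microbead, against 66.7 to 131 CPM in APOE3 sham (0.98 ± 0.26, adjusted p = 0.02163).

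Srgap2 had 152, 163 and 218 CPM in APOE3 microbead, against 436, 355, 356 and 434 CPM in APOE3 sham. It had the smallest adjusted p of the list, with a log2 fold change of -1.155 ± 0.19 (adjusted p = 0.0002911). Fscn1 had 9.05, 28.9 and 60.4 CPM in APOE3 microbead, against 105, 87.8, 79.2 and 112 CPM in APOE3 sham, a change of -1.52 ± 0.34 (adjusted p = 0.005704). With the monocyte covariate the value was 0.41, and with that covariate without Fn1 it was -0.87. Cyfip1 had 192, 238 and 194 CPM in APOE3 microbead, against 326 to 388 CPM in APOE3 sham (-0.82 ± 0.19, adjusted p = 0.006115). Abi3, at 85.9, 108 and 133 CPM in APOE3 microbead against 169 to 204 CPM in APOE3 sham, changed by -0.78 ± 0.21 (adjusted p = 0.02379). Elmo1 changed by -0.77 ± 0.21 (adjusted p = 0.02905) with overlapping libraries, and Marcks by -0.84 ± 0.24 (adjusted p = 0.03493). By role, 2 of 17 nucleation promoters and formins passed (Cyfip1 and Abi3), 3 of 15 bundling and filament-binding genes, 2 of 23 GTPase genes, 2 of 10 F-BAR adaptors and 2 of 11 myosins. Of 8 Arp2/3 subunits, 8 capping or severing genes, 8 membrane and adhesion linkers, 16 genes of monomer binding and turnover and 1 further actin gene, 0 passed. These counts stand against 5.2% of all genes, and no difference between roles was tested.

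The 11 calls moved with single APOE3 libraries and with the monocyte level. Without both APOE3 microbead 1 and 2, and with the monocyte covariate, 0 of the 117 passed, although 10 of the 11 fold changes kept their sign under the covariate and all 11 without those libraries. With the covariate without Fn1, 0 passed and all 11 kept their sign. The fit without both leaves 1 library in its group, which is assumed to vary like the other groups. Leaving out APOE3 microbead 2 gave 5 calls, leaving out APOE3 microbead 3 gave 19, and there were 7 each without APOE3 sham 1 and without APOE3 sham 2.

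**Figure D4:**
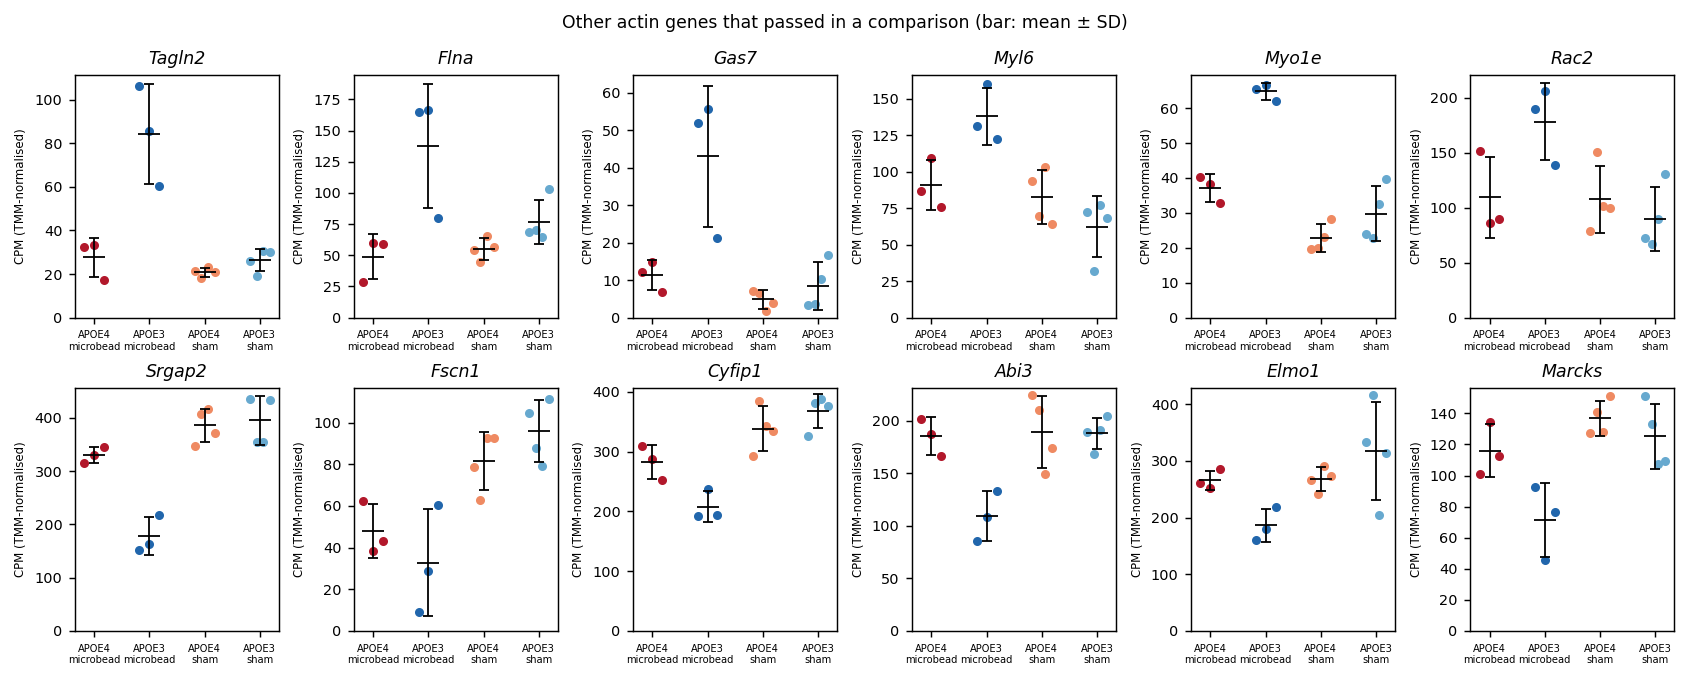
Level in every library (points, TMM-normalised CPM, linear axis from 0) of the 12 other actin genes that passed in a comparison, by group, with group mean and SD as bars (n = 3 or 4). The upper row holds the genes that were higher in APOE3 microbead than in APOE3 sham and Flna, and the lower row the genes that were lower there; Fscn1 lies at 9.05 to 60.4 CPM in APOE3 microbead.

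In APOE4 microbead against APOE3 microbead, 1 of the 117 rose and 2 fell (2.56%, against 0.578% of all genes, of which 0.223% rose and 0.355% fell). The median log2 fold change was -0.00765, against 0.000216 over all genes. In the libraries of these groups alone, 111 of the 117 passed the filter on low counts. Tagln2 had 32.3, 33.2 and 17.3 CPM in APOE4 microbead, against 106, 85.7 and 60.4 CPM in APOE3 microbead, and fell by 1.60 on the log2 scale (SE 0.32, adjusted p = 0.01211). The filamin Flna, which crosslinks filaments into networks, had 28.3, 59.8 and 58.8 CPM in APOE4 microbead, against 165, 167 and 79.9 CPM in APOE3 microbead, and fell by 1.47 (SE 0.31, adjusted p = 0.01397). APOE3 microbead 3 stood much closer to the APOE4 microbead level than the other 2. Srgap2 had 315, 331 and 346 CPM in APOE4 microbead, against 152, 163 and 218 CPM in APOE3 microbead, and rose by 0.90 ± 0.20 (adjusted p = 0.02772). In sham libraries Tagln2 had 18.2 to 23.1 CPM in APOE4 and 19.3 to 30.5 CPM in APOE3. Srgap2 had 348 to 416 CPM in APOE4 sham and 355 to 436 CPM in APOE3 sham. For Tagln2 and Srgap2 the APOE4 microbead libraries lay much nearer to sham than the APOE3 microbead libraries did. Those of Srgap2 were still just below all APOE4 sham libraries, as for 4.0% of the genes tested. Flna had 44.7 to 65.8 CPM in APOE4 sham and 65.0 to 103 CPM in APOE3 sham. Its level in APOE3 microbead 3 (79.9 CPM) lay within the APOE3 sham range. Abi3 (0.76 ± 0.22, adjusted p = 0.1413) and Myo1e (-0.80 ± 0.30, adjusted p = 0.3001) did not pass, nor did any of 8 Arp2/3 subunits, among which Arpc5 had the smallest p (-0.68 ± 0.26, adjusted p = 0.3416).

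The 3 calls depended on single libraries. None of the 117 passed when APOE4 microbead 1, APOE4 microbead 3, APOE3 microbead 1 or APOE3 microbead 2 was left out, without both APOE3 microbead 1 and 2, or with the monocyte covariate with or without Fn1, and 6 passed without APOE3 microbead 3. With the covariate the log2 fold changes were -0.88 for Tagln2, -0.30 for Flna and 0.52 for Srgap2, and without Fn1 in it they were -1.38 for Tagln2, -0.9965 for Flna and 0.67 for Srgap2. The APOE3 microbead libraries enter both this comparison and that with APOE3 sham, so the 2 sets of calls are not independent.

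**Figure D5:**
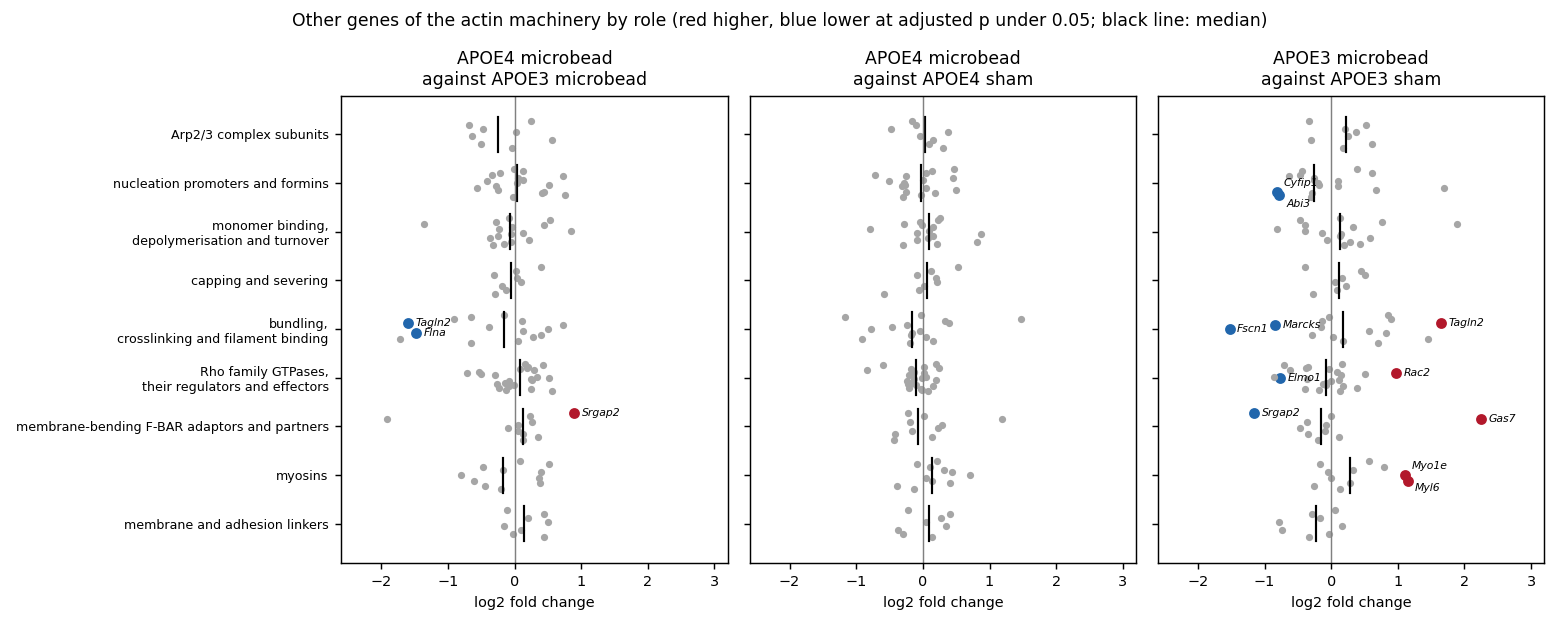
Log2 fold changes of the 117 other actin genes tested (points) by role, in 3 comparisons, except the single other actin monomer gene. Red and blue points passed at an adjusted p under 0.05 as higher or lower and black lines are medians; the medians lie close to 0 in each panel, and no point in APOE4 microbead against APOE4 sham passed.

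In APOE4 microbead against APOE4 sham, 0 of the 117 passed with edgeR, DESeq2 or limma-voom. DESeq2 gave an adjusted p to only 3772 genes there, which may leave out some of the 117. With edgeR 9 (7.69%) had an unadjusted p under 0.05, against 6.49% of all genes. In the libraries of these groups alone, 109 of the 117 passed the filter on low counts. The median log2 fold change was -0.011, against -0.00289 over all genes. The smallest p-values belonged to the coronin Coro1c (0.81 ± 0.26, adjusted p = 0.3493), the GTPase Rhob (-0.84 ± 0.28, adjusted p = 0.3576) and the filament-elongating Vasp (-1.18 ± 0.43, adjusted p = 0.4579). Coro1c had 58.5, 79.7 and 79.5 CPM in APOE4 microbead, against 34.1, 41.4, 33.8 and 56.6 CPM in APOE4 sham. In APOE4 sham against APOE3 sham, 0 of the 117 passed with any of these 3 tools, and 8 (6.84%) had an unadjusted p under 0.05, against 4.4% of all genes, led by the focal adhesion protein Zyx (0.72 ± 0.29, adjusted p = 0.9619) and the Rac-inactivating Arhgap25 (0.62 ± 0.25, adjusted p = 0.9619). In the sham libraries alone, 107 of the 117 passed the filter on low counts. In the interaction, 0 passed with edgeR or limma-voom and 1, Srgap2, with DESeq2, which called 2.48% of the 1855 genes it gave an adjusted p. With edgeR 15 (12.8%) had an unadjusted p under 0.05, against 8.19% of all genes. Srgap2 had an interaction of 0.93 ± 0.26 (adjusted p = 0.2089 with edgeR and 0.02583 with DESeq2), the calponin Cnn2 -2.36 ± 0.67 (adjusted p = 0.2089) and Myl6 -1.01 ± 0.37 (adjusted p = 0.373). Cnn2 rests on 7, 9 and 2 reads in APOE4 microbead and did not pass the filter on low counts in the microbead libraries alone. An actin gene that passed in APOE3 and not in APOE4 is therefore not shown by edgeR to differ between the genotypes in its response.

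The profiles most like those of the 3 picked genes were found over the 14 libraries among 7022 genes, by the mean absolute difference of log2 CPM after each gene was centred. For Capg these were Pstpip1 (0.423), Ank (0.433) and Fis1 (0.447), where the median gene was at 0.798. For Pstpip1 they were Tnip1 (0.279), Cox5b (0.292) and Mt1 (0.306), with the median gene at 0.639. For Iqgap1 they were Cd74 (0.377), Ms4a7 (0.411) and H2-Ab1 (0.413), with the median gene at 1.09. Cd74 and H2-Ab1 belong to antigen presentation on class II molecules, and Ms4a7 is on the list of border macrophage markers used here. H2-Ab1 had 92.8, 199 and 128 CPM in APOE4 microbead, 1260, 2515 and 733 CPM in APOE3 microbead libraries, 54.7 to 155 CPM in APOE4 sham and 100.1 to 229 CPM in APOE3 sham. Like Iqgap1 it was highest in the APOE3 microbead libraries, and APOE4 microbead 2 was the highest of its group. All these genes share the same libraries and depth, and the likeness is a description without a test. Iqgap1 was at 0.827 from Capg and at 0.779 from Pstpip1. Ranked from Capg and from Pstpip1, it lay beyond the median gene (4207th and 5886th of 7022), while ranked from Iqgap1 itself, Capg was 209th and Pstpip1 125th.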

How the data were processed

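The data are 14 libraries of sorted retinal microglia. The tools named in the submitters' processing notes are Salmon 1.4.0, R 4.0.3 and DESeq2 1.30.1, and the build is mm10. The transcript set, Salmon options and strand setting are not given in the sources used here. The authors deposited, per transcript, an estimated count, a TPM and an effective length (of unit other, in bases) for each library, per the file headers, and a series table of TPM per gene. As a check of labels, TPM summed per gene lay within 1% of the matching column for 99.22% to 99.37% of genes in each library, while no other column reached more than 2.11%.

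GENCODE M21 (GRCm38) gave a gene to 116023 of the 116945 transcripts by ID without version, 35519 genes in all, and left 922 out. Estimated counts of a gene's transcripts were added and then rounded. Of 28203 genes with a read, 7609 passed filterByExpr of edgeR 4.0.16 by group (minimum count 10, minimum total 15; R 4.3.3). One edgeR quasi-likelihood model (robust, TMM scaling) with 4 group means over the 14 libraries gave 5 two-sided comparisons, with Benjamini-Hochberg adjustment and calls at an adjusted p under 0.05. The common biological coefficient of variation was 0.275. A standard error (SE) is derived from the F statistic, and SD is the standard deviation of CPM. The model was tested on simulated counts. DESeq2 1.42.0 and limma 3.58.1 served as alternatives, near-identical transcripts were searched with blastn 2.17.0 (at least 95% identity over 100 bases), and promoter sequences are those of RefSeq (GRCm38.p6), found for 9 of the 10 genes.

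Same-numbered retinas did not vary together (19 pairs, correlations -0.144 to 0.0985). Named genes were the 10 members, the actin genes that passed (at most 4 per role group and comparison), the gene with the smallest p where none passed, and the 3 profiles most like each picked gene. The members and gene lists were chosen with earlier results of these data known. One further microglia marker is not reported here, and the summed marker level leaves it out.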

Additional observations from a re-analysis of the deposited data

Results flagged for a closer look

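For 3 of the 10 genes, every APOE4 microbead library moved one way from the mean of its sham group and every APOE3 microbead library the opposite way. The share of all genes with this pattern is not given here, so the count is a description only. For Capg, the microbead effect in APOE4 minus that in APOE3 was -2.715 ± 0.50 on the log2 scale, and for Pstpip1 it was -2.361 ± 0.52. The microbead libraries had picked both genes, so the difference was not tested. For Coro1a, the leukocyte coronin, the same pattern arose with a difference of -0.1683 ± 0.26. This value was tested for Coro1a in the edgeR interaction and did not pass (adjusted p = 0.9473), and its 95% interval of -0.70 to 0.37 spans 0. Some Coro1a libraries lay almost at their sham means. APOE4 microbead 3 had 323.1 CPM against 324.7, and APOE3 microbead 1 had 289.5 CPM against 284.7. Among 20 sham groups of 4 libraries (10 genes in each genotype), none held a library far from the others by Dixon's criterion, which chance alone meets in about 1 group in 20.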

How the results depend on the processing

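Each comparison was repeated under up to 27 alternatives, which changed the tool, scaling, gene filter, gene length correction or libraries. None of the tested members passed in any comparison under any of them, with 0 calls also in every fit without 1 library. The number of other actin genes that passed in APOE4 microbead against APOE3 microbead, 3 in the report, was 0 with library totals as scaling, 1 with length offsets, 0 with limma on log2(TPM + 1), 0 with only the groups compared, 0 without both APOE3 microbead 1 and 2, 0 with the monocyte covariate, 0 with that covariate without Fn1, and 0 to 6 without 1 library. In APOE3 microbead against APOE3 sham, 11 in the report, it was 4 with library totals, 5 with length offsets, 0 with limma on log2(TPM + 1), 5 with only the groups compared, 0 without both APOE3 microbead 1 and 2, 0 with the covariate, 0 with it without Fn1, and 5 to 19 without 1 library. In the interaction, 0 in the report, it was 1 with DESeq2. In APOE4 microbead against APOE4 sham and in APOE4 sham against APOE3 sham it was 0 throughout. The causes were not tested, except that the fits with fewer libraries hold fewer samples.

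Retina numbers did not pair the libraries (0 of 19 pairs over a correlation of 0.1, and 4 of 14 libraries correlated best with their own number). With the retina number as a replicate block, edgeR called 33 genes in APOE4 microbead against APOE3 microbead, 5 in APOE4 microbead against APOE4 sham, 291 in APOE3 microbead against APOE3 sham, 0 in APOE4 sham against APOE3 sham and 3 in the interaction, against 44, 17, 396, 1 and 7 without it. The block left Capg at -2.38, Iqgap1 at -2.46 and Pstpip1 at -2.11 in APOE4 microbead against APOE3 microbead, and Pfn1 at 0.008748 in APOE4 microbead against APOE4 sham.

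Library totals moved the median log2 fold change of all genes by -0.228 in APOE4 microbead against APOE4 sham, 0.165 in APOE4 sham against APOE3 sham and -0.217 in the interaction, and length offsets by -0.108 in the interaction. The sign of small, uncalled changes turned as follows. With library totals, APOE4 microbead against APOE3 microbead gave -0.04794 for Coro1a, APOE4 microbead against APOE4 sham gave -0.10 for Cfl1 and -0.08232 for Lcp1, and APOE4 sham against APOE3 sham gave 0.05452 for Actb, 0.004605 for Cfl1, 0.09494 for Pfn1, 0.08968 for Arpc1b and 0.12 for Lcp1. With length offsets, Coro1a was -0.05165 in APOE4 microbead against APOE3 microbead, and APOE4 sham against APOE3 sham gave -0.04691 for Pstpip1, 0.09474 for Pfn1, 0.17 for Arpc1b and 0.02922 for Lcp1. With limma on log2(TPM + 1), Coro1a was -0.13 in APOE4 microbead against APOE3 microbead, APOE4 microbead against APOE4 sham gave -0.21 for Cfl1, -0.27 for Arpc1b and -0.25 for Lcp1, and APOE4 sham against APOE3 sham gave 0.16 for Actb, 0.09246 for Cfl1, 0.31 for Pfn1, 0.37 for Arpc1b and 0.21 for Lcp1.

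Without both APOE3 microbead 1 and 2, Cfl1 was 0.32 and Arpc1b 0.14 in APOE4 microbead against APOE3 microbead, APOE3 microbead against APOE3 sham gave -0.01734 for Actb, -0.32 for Cfl1, -0.09855 for Tmsb4x, -0.53 for Actr3 and -5.42 for Tmsb10 (no read in the remaining library), and the interaction gave 0.475 for Cfl1, 0.22 for Arpc1b and 0.04876 for Lcp1. With the monocyte covariate, Cfl1 was 0.039, Coro1a -0.05247 and Arpc1b 0.09716 in APOE4 microbead against APOE3 microbead, APOE3 microbead against APOE3 sham gave -0.11 for Actb, -0.08478 for Cfl1, -0.01989 for Pfn1, -0.09073 for Tmsb4x, -0.515 for Actr3, 0.41 for Fscn1 and -1.43 for Tmsb10, and the interaction gave 0.15 for Cfl1 and 0.14 for Arpc1b. With that covariate without Fn1, chosen after seeing the data, APOE4 microbead against APOE3 microbead gave 0.02943 for Cfl1, 0.01032 for Arpc1b and 0.005183 for Lcp1, APOE4 microbead against APOE4 sham -0.02727 for Cfl1, APOE3 microbead against APOE3 sham -0.07293 for Cfl1, -0.3137 for Actr3 and -1.523 for Tmsb10, APOE4 sham against APOE3 sham 4.907e-06 for Pfn1, 0.03367 for Arpc1b and 0.05087 for Lcp1, and the interaction 0.04566 for Cfl1.

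Leaving out 1 library turned further small values, given with the range over all such fits: in APOE4 microbead against APOE3 microbead, Coro1a to -0.004855 without APOE4 microbead 3 and -0.04629 without APOE3 microbead 1 (-0.04629 to 0.07563); in APOE4 microbead against APOE4 sham, Pfn1 to 0.01879, 0.05192 and 0.05676 without APOE4 microbead 1, APOE4 microbead 3 and APOE4 sham 3 (-0.1634 to 0.05676), and Coro1a to 0.01324 and 0.008102 without APOE4 sham 1 and 2 (-0.09491 to 0.01324); in APOE4 sham against APOE3 sham, Actb to 0.02315 without APOE3 sham 4 (-0.1686 to 0.02315), Pfn1 to 0.0004789 and 0.02711 without APOE4 sham 2 and APOE3 sham 3 (-0.1643 to 0.02711), and Lcp1 to 0.008846 without APOE4 sham 2 (-0.1594 to 0.008846); in the interaction, Cfl1 to 0.08591 (-0.4132 to 0.08591) and Lcp1 to 0.06134 (-0.3239 to 0.06134) without APOE3 microbead 2. Depth limits Capg, Iqgap1 and Pstpip1 most, at 3 to 22 reads per APOE4 microbead library.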
